A study of Mus musculus with 5 samples.

Results

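Gene expression in the mouse dentate gyrus (DG) was ordered here by how far the animals ran. Of the 5 RNA-Seq libraries of the series, 3 were placed on a scale of mean running distance: LD at 0 km/day, L-RUN at 10.65 km/day and H-RUN at 17 km/day. Each gene has a first step, L-RUN minus LD, and a second step, H-RUN minus L-RUN. A gene was classed as rising or falling where both steps had the same sign, as a peak where it was highest in L-RUN and as a trough where it was lowest in L-RUN. Genes with both steps below 0.1 in size were classed as flat. All 13550 genes with a mean value of at least 5 over the 5 libraries (called expressed), of 23420 genes in the files, were classed in this way. The values are regularized log (rlog) values, which are on a log2 scale and are shrunk towards the mean of each gene, so that low genes move less than their counts did.

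All mice were wild-type male CD1 mice, an outbred stock, given as 3 months old in the methods and 4 months old in the labels, and all were housed for 4 weeks. LD mice lived alone with a disk that was glued in place, and RUN mice lived alone with a disk that turned. CE (complex environment) mice lived in groups with a glued disk and with tunnels that were moved. LD, CE and RUN were pools of RNA from 8 mice each, and the 8 RUN mice were pooled again by distance into the 4 that ran least (L-RUN) and the 4 that ran most (H-RUN). The mice of L-RUN and H-RUN were thus set apart by their own running, and distance cannot be told apart from any other difference between these mice. Each group is 1 library, so that no test of any gene or class can be made and no value here has a replicate library. The paper also ran quantitative PCR (qPCR) on RNA from the opposite DG of the same mice. It reports Bdnf as raised in all running groups and Cwc22 as markedly lower in L-RUN.

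The DG is the entry station of the hippocampus, where granule cells receive cortical input and where new granule cells are born in adult life. Voluntary running is known to raise this neurogenesis and the level of the growth factor BDNF in rodents. Ordering the pools asks which transcripts change step by step with distance, which level off, and which turn at the middle distance. A bulk library gives the sum over all cells of the tissue, so that fewer cells of a type and less RNA per cell cannot be told apart. The granule cell markers Prox1, Dsp, C1ql2, Calb1, Lct, Trpc6 and Plk5 were all expressed, and their log2 summed level lay between 14.71 and 14.81 in the 5 libraries. Markers of neighbouring tissue were present as well. The 8 markers of CA1 and CA3 pyramidal cells had a log2 summed level of 12.60 to 12.92, and the 18 expressed markers of leptomeningeal fibroblasts, the cells of the membrane over the brain, had one of 12.93 to 14.29. For all but 3 of the 8 choroid plexus markers the mean value was below 5.

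The error of a single library can be read from RUN, a pool of all 8 runners that should equal the mean of its component pools. The residual of RUN against an equal mixture of both had a median of 0.0005 and an SD of 0.0316, which makes 0.0365 for a difference between 2 libraries. This technical SD lay between 0.0222 in the most and 0.0473 in a less expressed decile of genes. The limit of 0.1 is thus 2.74 technical SD, and 2.11 to 4.51 over the deciles, and RUN departed from the mixture by 0.1 or more for 63 genes (0.465%). The technical SD holds library preparation and sequencing and leaves out the differences between mice.

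By the rule, fewer genes followed the order of distance than turned at L-RUN. There were 363 rising genes (2.68% of the expressed genes) and 386 falling genes (2.85%), against 2391 peak genes (17.6%) and 2928 trough genes (21.6%). The flat class held the other 7482 genes (55.2%). Of the 6068 genes that were not flat, H-RUN was the middle pool for 3795 (62.5%), LD for 1524 (25.1%) and L-RUN for 749 (12.3%). Both steps contain L-RUN, so that the rule favours genes with L-RUN at an end. A further 539 flat genes had H-RUN at least 0.1 from LD, and by construction all of them have L-RUN in the middle. Over the 6607 genes (48.8%) with any of the 3 differences at 0.1 or more, L-RUN was in the middle for 1288 (19.5%) and H-RUN for 3795 (57.4%). Over all expressed genes, which need no limit, L-RUN was in the middle for 3364 (24.8%), LD for 3708 (27.4%) and H-RUN for 6478 (47.8%), where 2 of the 6 possible orders put L-RUN there. Among the 493 genes (3.64%) whose larger step was at least 0.3, chosen on the steps again, L-RUN was in the middle for 25 (5.07%). Among the genes that were not flat, the most frequent order was L-RUN below H-RUN below LD, with 2180 genes, followed by LD below H-RUN below L-RUN, with 1615 genes.

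**Figure D1:**
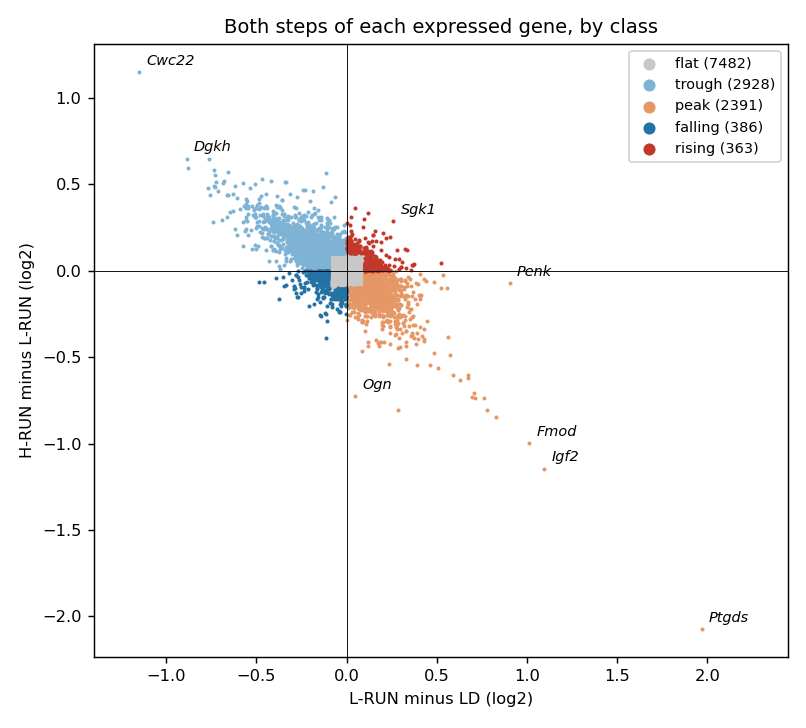
Both steps of each of the 13550 expressed genes on the log2 scale, with L-RUN minus LD on the horizontal and H-RUN minus L-RUN on the vertical axis, coloured by class. Most of the larger points lie in the lower right (peak) and upper left (trough) of the plot, with Ptgds and Cwc22 at the ends, while the rising (upper right) and falling (lower left) genes have smaller steps.

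Each class was also split by whether both steps were large. Both steps reached 0.1 for 30 rising genes (0.221%), 38 falling genes (0.28%), 871 peak genes (6.43%) and 1337 trough genes (9.87%). With both steps at 0.3 or more, 0 rising and 0 falling genes (0% each) were left, with 43 peak genes (0.317%) and 96 trough genes (0.708%). A limit on both steps asks for a net change of at least the sum of both limits in rising and falling genes and for no net change in peak and trough genes, so that these counts are a description and do not weigh the classes against each other. An error of the L-RUN value enters both steps with opposite signs and by itself makes a peak or a trough. The comparison with RUN, given further on, leaves out the L-RUN library but carries the errors of RUN and H-RUN. The genes nearest to the limit were Pcdhga2 (larger step 0.100008 in size) and Rab22a (0.100026) on the inside, and 5430416N02Rik (0.0999863) and Acly (0.0999681) on the outside.

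The steps can also be read in sequence. The second step was at least 0.1 upward for 14% and downward for 10.8% of the expressed genes. Of the genes higher in L-RUN than in LD by at least 0.1 (2210 genes, 16.3%), 1309 were then level, 871 came down and 30 went up again. Of those lower in L-RUN by at least 0.1 (2782 genes, 20.5%), 1407 were level, 1337 came back up and 38 went down again. A further 525 genes were level from LD to L-RUN and higher in H-RUN, and 551 were level and then lower. In the first step, of 10.65 km/day, and the second, of 6.35 km/day, L-RUN covers 62.6% of the distance. The 30 genes that rose in both steps had a median of 48.6% of their change at L-RUN (quartiles 44.1% and 54.1%), and the 38 genes that fell in both had 50.1% (45.3% and 60.5%). For the median gene of either group the second step was thus the larger per km. The requirement of 0.1 on each of the steps favours an even split. Without that requirement the medians were 74.3% for the rising and 73.1% for the falling genes.

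The promoters of the leading gene of each class are printed here because they let a reader compare the start regions of transcripts that follow distance with those of transcripts that turn at L-RUN. Each runs from 250 bases before to 50 after the start in the RefSeq table (GRCm38.p6), 5′ to 3′ on the strand of the gene, with CpG dinucleotides in capitals.
Sgk1, chr10:21881934-21882233, plus strand, 1 of 6 start windows in the table: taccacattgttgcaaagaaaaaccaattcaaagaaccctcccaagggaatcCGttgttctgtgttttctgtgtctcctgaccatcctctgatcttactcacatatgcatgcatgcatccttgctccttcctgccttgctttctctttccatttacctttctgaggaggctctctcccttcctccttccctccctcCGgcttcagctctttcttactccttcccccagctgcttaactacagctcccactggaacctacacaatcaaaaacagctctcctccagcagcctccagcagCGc
Kcnf1, chr12:17176839-17177138, minus strand: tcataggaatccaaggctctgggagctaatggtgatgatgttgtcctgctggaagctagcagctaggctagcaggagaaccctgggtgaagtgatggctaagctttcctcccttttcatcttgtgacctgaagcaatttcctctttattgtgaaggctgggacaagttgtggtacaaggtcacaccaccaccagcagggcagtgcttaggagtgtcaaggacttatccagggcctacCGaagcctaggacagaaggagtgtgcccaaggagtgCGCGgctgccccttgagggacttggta
Ptgds, chr2:25469700-25469999, minus strand: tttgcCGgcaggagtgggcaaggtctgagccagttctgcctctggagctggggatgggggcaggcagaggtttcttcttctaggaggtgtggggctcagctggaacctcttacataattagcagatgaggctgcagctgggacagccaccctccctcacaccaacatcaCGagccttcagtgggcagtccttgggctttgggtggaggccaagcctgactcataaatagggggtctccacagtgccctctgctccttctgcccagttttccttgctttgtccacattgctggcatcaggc
Cwc22, chr2:77946307-77946606, minus strand: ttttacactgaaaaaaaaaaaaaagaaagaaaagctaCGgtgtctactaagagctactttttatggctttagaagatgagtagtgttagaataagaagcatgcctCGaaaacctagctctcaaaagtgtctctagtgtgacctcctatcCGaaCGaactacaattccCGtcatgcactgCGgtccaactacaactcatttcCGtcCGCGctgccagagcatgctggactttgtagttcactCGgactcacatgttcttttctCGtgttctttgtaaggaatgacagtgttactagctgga

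The Sgk1 and Kcnf1 windows each hold 3 CpGs, the Ptgds window 2 and the Cwc22 window 11. Over the 10058 expressed genes with a promoter in the table, the median was 21 CpGs, with 20 in rising, 21 in falling, 19 in peak, 23 in trough and 21 in flat genes. All 4 windows are free of the cyclic AMP response element TGACGTCA, the E-box CACGTG, the EGR site GCGTGGGCG and the site of MEF2, searched on both strands. TGACGTCA was found in 3.02% of the rising, 1.73% of the falling, 3.47% of the peak, 3.43% of the trough and 3.13% of the flat promoters, against 3.21% of the expressed genes with a promoter and 1.88% of all promoters in the table. A match of letters is a description and not a site in use.

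Among rising genes, the class was led by Sgk1, a kinase induced by glucocorticoids and by activity, with 10.54 in LD, 10.79 in L-RUN, 11.08 in H-RUN, 10.88 in RUN and 10.60 in CE. The steps were 0.26 and 0.29, and CE lay close to LD. Nptx2, a secreted pentraxin that gathers AMPA receptors at synapses, had 9.50 in LD, 9.70 in L-RUN, 9.92 in H-RUN, 9.82 in RUN and 9.51 in CE. Bdnf, the neurotrophin, had 11.07 in LD, 11.26 in L-RUN, 11.43 in H-RUN, 11.33 in RUN and 11.08 in CE, with steps of 0.19 and 0.17. In these genes the level in CE was near that of LD, and RUN had a value between those of its component pools. Drd1a, the D1 dopamine receptor, had steps of 0.24 and 0.19, Lrrc10b of 0.22 and 0.19, and Daglb, an enzyme that makes the endocannabinoid 2-AG, of 0.16 and 0.17. With L-RUN rebuilt from RUN and H-RUN, as described further on, the first step was 0.11 for Sgk1 and 0.08 for Daglb, which is below the limit, and between 0.14 and 0.27 for the other 4 genes. Of the 30 genes that rose in both steps, 21 had CE within 0.1 of LD, 6 had CE higher and 3 lower. Over all expressed genes, CE was within 0.1 of LD for 73.2%, higher for 12.8% and lower for 14%.

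Among falling genes, the leading one was Kcnf1, a silent subunit that modifies voltage-gated potassium channels, with 10.21 in LD, 10.0003 in L-RUN, 9.80 in H-RUN, 9.92 in RUN and 10.32 in CE. Both of its steps were -0.21. Grik3, a kainate receptor subunit, had 10.42 in LD, 10.05 in L-RUN, 9.88 in H-RUN, 9.96 in RUN and 10.47 in CE, with steps of -0.37 and -0.16. For both genes CE was slightly above LD, on the other side from the running pools. Tgfbr1, a receptor for TGF-beta, had steps of -0.27 and -0.15, and its CE value of 10.39 was, to 2 decimals, that of L-RUN. The others were 2900052N01Rik (-0.18 and -0.19), Amotl1 (-0.16 and -0.16), which acts at cell junctions, and the cadherin-related Cdhr1 (-0.27 and -0.15). With L-RUN rebuilt, the first step was -0.09 for 2900052N01Rik, below the limit in size, -0.31 for Amotl1, whose second step was then below the limit, -0.16 for Cdhr1, and -0.38 to -0.17 for the other 3 genes. Of the 38 genes that fell in both steps, 17 had CE lower than LD by at least 0.1 and 5 had it higher. Over all expressed genes the shares were 14% lower and 12.8% higher. For rising and falling genes alike, CE minus LD shares the LD library with the first step. These CE counts are thus given side by side only.

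The largest peak gene was Ptgds, which makes prostaglandin D2 and is abundant in the leptomeninges, with 11.64 in LD, 13.61 in L-RUN, 11.54 in H-RUN, 12.98 in RUN and 11.94 in CE. It was 3.92-fold higher in L-RUN than in LD, and 4.21-fold lower in H-RUN than in L-RUN. Igf2, a growth factor made by leptomeningeal and choroid plexus cells, had 9.65 in LD, 10.75 in L-RUN, 9.60 in H-RUN, 10.23 in RUN and 9.75 in CE. Fmod, a collagen-binding proteoglycan, had 7.58 in LD, 8.60 in L-RUN, 7.60 in H-RUN, 8.18 in RUN and 7.69 in CE. In all 3 genes L-RUN stood alone, H-RUN was within about 0.1 of LD, and RUN lay between its component pools. Slc13a4, a sulfate transporter (0.83 and -0.85), Apod, a lipid carrier (0.78 and -0.81), and Aldh1a2, which makes retinoic acid (0.76 and -0.74), had the same form. Of these 6 leading genes, 5 are in the list of leptomeningeal fibroblast markers, the exception being Apod. The list was chosen with earlier results of these data known. This overlap and the class shares of the list may thus be set in part by that choice. All 18 expressed members of the list were peak genes, with first steps of 0.05 to 1.97, second steps of -2.07 to -0.17 and a median first step of 0.51. Their log2 summed level was 13.04 in LD, 14.29 in L-RUN, 12.93 in H-RUN, 13.79 in RUN and 13.24 in CE. The sum is taken over linear values and depends strongly on Ptgds, at 13.61 in L-RUN, where the next highest member, Igf2, had 10.75. No marker of the list was at 0, and the one below a mean of 5, Foxd1, had 4.59 in LD and 4.72 then 4.56 in the running pools, L-RUN first. The part of this tissue in the peak class was not tested.

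The largest trough gene was Cwc22, a splicing factor, with 13.68 in LD, 12.54 in L-RUN, 13.69 in H-RUN, 13.32 in RUN and 13.24 in CE, which was 2.22-fold lower in L-RUN than in LD. Copies of Cwc22 vary in number among mice, and reads of near-identical copies may not be told apart, so its value is uncertain. The paper also reports lower Cwc22 in L-RUN by qPCR, in the same mice. Dgkh, a kinase that removes the second messenger diacylglycerol, had 10.45 in LD, 9.57 in L-RUN, 10.22 in H-RUN, 9.95 in RUN and 10.02 in CE. Grin2a, an NMDA receptor subunit, had 10.30 in LD, 9.42 in L-RUN, 10.01 in H-RUN, 9.72 in RUN and 9.88 in CE. Unlike the leading peak genes, Dgkh and Grin2a stayed below LD in H-RUN, with differences of -0.24 and -0.29, and were also lower in CE. Pcdh1, a cell adhesion molecule (-0.76 and 0.65), and Tnr, a glycoprotein of the nets around neurons (-0.66 and 0.57), were also lowest in L-RUN.

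**Figure D2:**
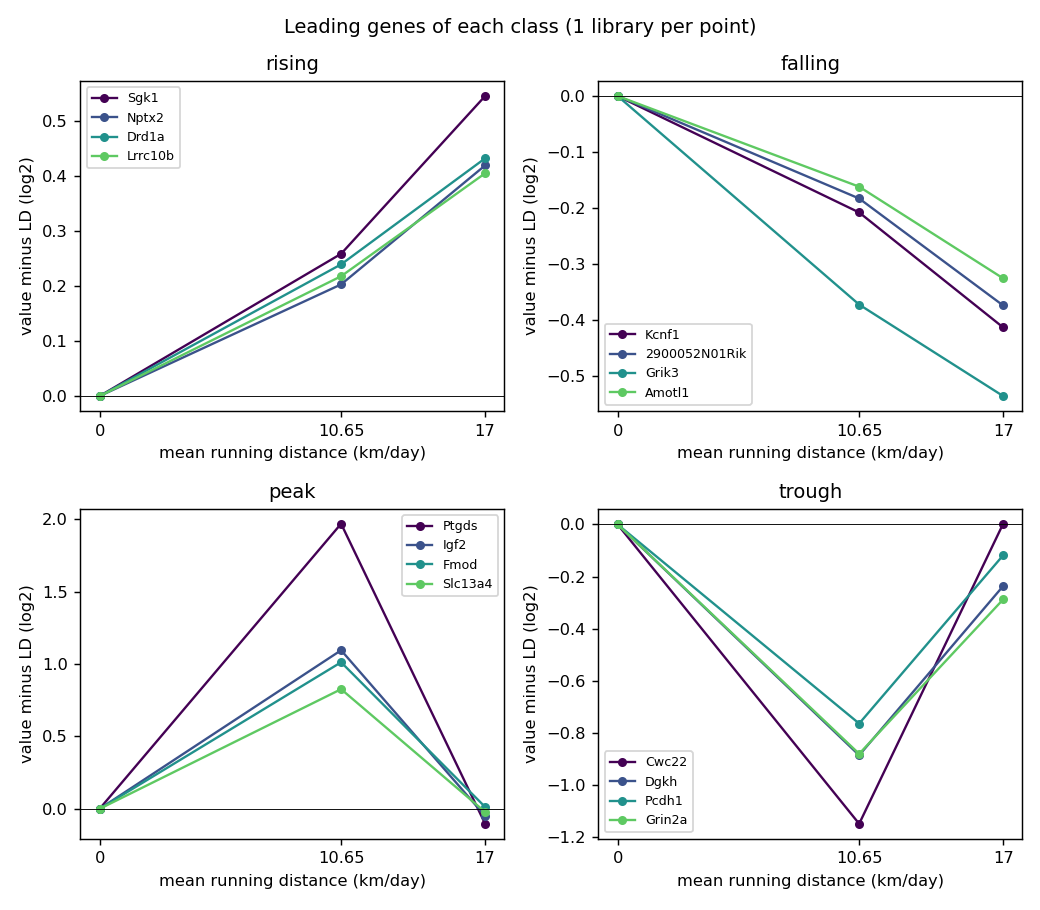
The 4 leading genes of each class as the value minus LD (log2) against mean running distance in km/day, with 1 library per point and no error bars. The rising and falling genes shown change the same way in both steps, while the peak genes return to within about 0.1 of LD in H-RUN. Of the trough genes shown, Cwc22 returns to LD, and Dgkh (-0.24), Grin2a (-0.29) and Pcdh1 (-0.12) stay below it in H-RUN.

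Among genes with both steps of at least 0.1, H-RUN was near LD more often in peak than in trough genes. H-RUN was within 0.1 of LD for 755 of the 871 peak genes with both steps (86.7%) and for 961 of the 1337 trough genes (71.9%), against 78.9% of all expressed genes. The median first step was 0.17 in these peak and -0.21 in these trough genes, so that a fixed window asks for a larger return in the trough genes. For the whole classes the shares were 73.5% of the peak and 68% of the trough genes, both below that of all expressed genes. Over the expressed genes, H-RUN was higher than LD by 0.1 or more for 9.45% and lower for 11.6%. Of the trough genes with both steps, 343 stayed below LD by 0.1 or more and 33 passed above it. Of the peak genes with both steps, 72 stayed above and 44 passed below. CE shares the LD library with these steps, and its values are given side by side only. Over the expressed genes, CE was higher than LD by 0.1 or more for 12.8% and lower for 14%. In the 1337 trough genes, CE was lower than LD by 0.1 or more for 517 and higher for 52, and in the 871 peak genes it was higher for 240 and lower for 28.

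Some genes changed in 1 step only, and by the sign of a second step below 0.1 they fall in a class that does not describe them. Penk, the precursor of enkephalins, was a plateau: 10.46 in LD, 11.37 in L-RUN, 11.29 in H-RUN, 11.32 in RUN and 10.52 in CE. Its steps were 0.91 and -0.07, which makes it a peak gene by rule, at 1.87-fold of LD in L-RUN. Igfbp6, a binding protein of IGF-2 (0.56 and -0.10), and Rprm, a cell cycle inhibitor (0.54 and -0.03), had the same form. Igfbp5, a binding protein of IGFs, was the plateau in the other direction, with 12.66 in LD, 12.18 in L-RUN, 12.11 in H-RUN, 12.16 in RUN and 12.62 in CE. Fibcd1, a marker of CA1 cells, followed with -0.46 and -0.06, and E130008D07Rik with -0.43 and 0.06. The other group that did not run differed between these genes: CE minus LD was 0.06 in Penk and -0.04 in Igfbp5, but -0.38 in E130008D07Rik, where CE had the value of H-RUN to 2 decimals.

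Other genes changed in the second step. Ogn, a proteoglycan of fibroblasts, had 8.95 in LD, 9.0 in L-RUN, 8.27 in H-RUN, 8.69 in RUN and 8.90 in CE, with steps of 0.05 and -0.72. A730098P11Rik (0.09 and -0.46) and Gdpd2 (0.08 and -0.30) were also lowest in H-RUN. Mfsd4 had steps of -0.07 and 0.43, Epha7, a receptor for ephrins, of -0.09 and 0.40, and Bok, of the Bcl-2 family, of 0.05 and 0.36. In Epha7 the 5 values were 13.12 in LD, 13.03 in L-RUN, 13.43 in H-RUN, 13.23 in RUN and 13.10 in CE, so that H-RUN stood alone. Dcn, a proteoglycan in the leptomeningeal list, had 9.45 in LD and 9.74 then 8.93 in the running pools, L-RUN first, and with H-RUN minus LD of -0.52 it was, beside Ogn (-0.68), the marker of that list farthest below LD in H-RUN.

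Gene lists are read here against the shares of all expressed genes, which are 2.68% rising, 2.85% falling, 17.6% peak, 21.6% trough and 55.2% flat. The classes go by sign, so that the counts include genes with a step below 0.1. Over all expressed genes, peak genes with both steps of at least 0.1 made up 6.43% and such trough genes 9.87%. Activity-induced immediate early genes, which neurons transcribe within minutes to hours of firing, divided between classes. Of 19 expressed members, 4 were rising (2 with both steps), 10 trough (7 with both steps), 2 peak and 3 flat, with no falling gene. Nptx2 and Bdnf, above, and Ptgs2, the inducible cyclooxygenase (0.10 and 0.30), and Junb (0.04 and 0.11) were rising. Nr4a3, a nuclear receptor, was lower in L-RUN and came part of the way back (8.32 in LD, 7.81 in L-RUN, 8.14 in H-RUN, 8.06 in RUN and 8.33 in CE). Arc, which acts in the removal of AMPA receptors, did so as well (10.43 in LD, 9.98 in L-RUN, 10.28 in H-RUN, 10.10 in RUN and 10.39 in CE). Egr1 (-0.27 and 0.17), Egr3 (-0.33 and 0.29) and Nr4a1 (-0.35 and 0.26) had this form, while Fos had steps of -0.15 and 0.01. The share of trough genes in the list was 52.6%, against 21.6% of all expressed genes, and of rising genes 21.1%, against 2.68%.

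Among the receptors of fast transmission, 6 of 16 ionotropic glutamate receptor genes were trough genes (37.5%), 2 were falling (12.5%) and 8 flat (50%). Grin2b, an NMDA receptor subunit, had 9.04 in LD, 8.33 in L-RUN, 8.79 in H-RUN, 8.60 in RUN and 8.80 in CE. Grin1, Gria1, Gria2 and Grik4 had smaller troughs, with first steps of -0.19 to -0.08, and Grin3a (-0.32 and -0.01) a downward plateau. Of 11 GABA-A receptor subunits, 3 were rising (27.3%, 1 with both steps), 4 trough (36.4%, 2 with both steps), 1 falling and 3 flat. With the length trend removed, and also with L-RUN rebuilt, both described further on, 2 of 11 were rising (18.2%). Gabra5 (0.06 and 0.14) and Gabrb2 (0.01 and 0.11) went up by at least 0.1 in the second step only. Gabra3 fell in both steps (9.44 in LD, 9.29 in L-RUN, 9.03 in H-RUN, 9.18 in RUN and 9.61 in CE), whereas Gabra2 (-0.27 and 0.21) and Gabrb1 (-0.27 and 0.22) were troughs. Subunits of the same receptor family thus took different classes.

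Trough genes took a larger share of the second messenger and channel lists than the 21.6% of all expressed genes. Long transcripts were more often trough genes, and the shares with the length trend removed are given further on. Of 23 genes of phosphoinositide, diacylglycerol and IP3 signalling, 15 were trough genes (65.2%, 10 with both steps), 2 peak and 6 flat. Itpr1, the IP3 receptor of neurons, had 12.79 in LD, 12.18 in L-RUN, 12.39 in H-RUN, 12.31 in RUN and 12.42 in CE. Prkcb, a protein kinase C, had 13.45 in LD, 12.89 in L-RUN, 13.31 in H-RUN, 13.15 in RUN and 13.22 in CE. Both were lowest in L-RUN, and Itpr1 remained below LD in H-RUN, with a difference of -0.40. Dgkb, a kinase of diacylglycerol (-0.08 and 0.24), had the larger step between the running pools. Of 22 voltage-gated calcium channel subunits, 13 were trough genes (59.1%, 9 with both steps) and 9 flat. The trough genes were led by Cacna1e (-0.51 and 0.31). Of 72 potassium channel subunits, 31 were trough (43.1%, 17 with both steps), 28 flat, 6 peak, 4 rising and 3 falling genes. Kcnq3, a subunit of the M-current (-0.69 and 0.30), and Kcnj6 (-0.49 and 0.39) and Kcnj3 (-0.45 and 0.37), which form channels gated by G proteins, led the troughs. Of 63 protocadherins, which act in cell recognition, 40 were trough genes (63.5%, 24 with both steps), 22 flat and 1 rising. Many of them share exons, so that reads may be split between them.

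In the IGF system, 7 of 14 genes were peak genes (50%, 4 with both steps), 2 trough, 1 rising, 1 falling and 3 flat. Igfbp2 (0.39 and -0.43) is also in the leptomeningeal list, and Igf1 itself had steps of 0.02 and -0.13. Pappa, a protease that cleaves IGF-binding proteins, was the rising member, with 7.16 in LD and 7.28 then 7.61 in the running pools, L-RUN first. Irs2, an adaptor of the insulin and IGF receptors, was a trough gene (-0.42 and 0.24). For neurotrophins, Bdnf went up with distance while the gene of its receptor, Ntrk2, was a trough gene, with 13.04 in LD, 12.72 in L-RUN, 12.86 in H-RUN, 12.80 in RUN and 13.01 in CE.

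Of 15 neuropeptide and opioid receptor genes, 7 were peak genes (46.7%, 5 with both steps), 1 trough and 7 flat. The plateau gene Penk is counted among the 7 peak genes. Npy, a peptide of interneurons, had 10.12 in LD, 10.44 in L-RUN, 10.12 in H-RUN, 10.27 in RUN and 10.13 in CE. Sst, another interneuron peptide, had 11.37 in LD, 11.68 in L-RUN, 11.42 in H-RUN, 11.57 in RUN and 11.71 in CE. Npy was high in L-RUN, and Sst was as high in CE. Tac1 (0.28 and -0.36) and Adcyap1, which encodes PACAP (0.23 and -0.28), were peaks as well, while Cck (-0.05 and 0.01) and Pdyn (-0.03 and 0.01) were flat. Gad1 and Gad2 were among the 5 flat genes of the 9 interneuron markers.

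The stress and clock lists did not follow a single order. Of 14 glucocorticoid receptor and response genes, Sgk1 alone was rising, with 5 peak (35.7%), 5 trough (35.7%) and 3 flat genes. The receptors Nr3c1 (-0.25 and 0.12) and Nr3c2 (-0.40 and 0.30) were troughs, Tsc22d3 (0.21 and -0.19) was a peak, and Fkbp5 (0.01 and 0.01) was flat. Of 16 heat shock and chaperone genes, 3 were falling (18.8%, 1 with both steps), 5 peak (31.2%, 2 with both steps), 1 trough and 7 flat (43.8%). The falling ones included the chaperones of the endoplasmic reticulum Hspa5, with 13.46 in LD, 13.34 in L-RUN, 13.09 in H-RUN, 13.26 in RUN and 13.26 in CE, and Hsp90b1 (-0.08 and -0.16). Of 15 circadian clock genes, 4 were falling (26.7%, 1 with both steps), 6 trough (40%, 3 with both steps), 3 peak and 2 flat. Per2 (-0.24 and -0.01), Per3 (-0.28 and -0.02), Nr1d2 (-0.37 and 0.03) and Bhlhe40 (-0.30 and -0.05) had their change in the first step, and Hlf (-0.25 and -0.13) in both, whereas Arntl (0.15 and -0.05) and Npas2 (0.16 and -0.002) were higher. The time of day of the dissections was not used here.

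By cell type, all 8 oligodendrocyte markers were trough genes, against 21.6% of all expressed genes, with first steps of -0.23 to -0.03 and second steps of 0.14 to 0.23. Mbp, a main protein of myelin, had 14.29 in LD, 14.06 in L-RUN, 14.23 in H-RUN, 14.15 in RUN and 14.21 in CE. It was back within 0.1 of LD in H-RUN. Of 6 expressed immature neuron markers, 5 were peak genes (83.3%, 4 with both steps). Calb2, a calcium-binding protein of immature granule cells and of some interneurons and mossy cells, had 11.28 in LD, 11.55 in L-RUN, 11.43 in H-RUN, 11.51 in RUN and 11.43 in CE, while Dcx, of young neurons, was flat (-0.08 and 0.08). The granule cell markers were split, with Prox1 (-0.41 and 0.32), Dsp and Lct as troughs, Plk5 (0.36 and -0.22), Calb1 and Trpc6 as peaks and C1ql2 (0.37 and 0.03) as an upward plateau. Of the CA1 and CA3 markers, 6 of 8 were troughs (75%, 5 with both steps). The log2 summed level of all 8 was 12.85 in LD, 12.60 in L-RUN, 12.87 in H-RUN, 12.75 in RUN and 12.92 in CE. Of 7 astrocyte markers 3 were trough (42.9%) and 4 flat (57.1%), and of 8 microglia markers 3 were trough (37.5%), 1 falling and 4 flat (50%). The endothelial list of 7 had 1 peak, 2 trough (28.6%) and 4 flat genes (57.1%), and the list of 5 oligodendrocyte precursor markers 2 trough (40%) and 3 flat genes (60%).

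**Figure D3:**
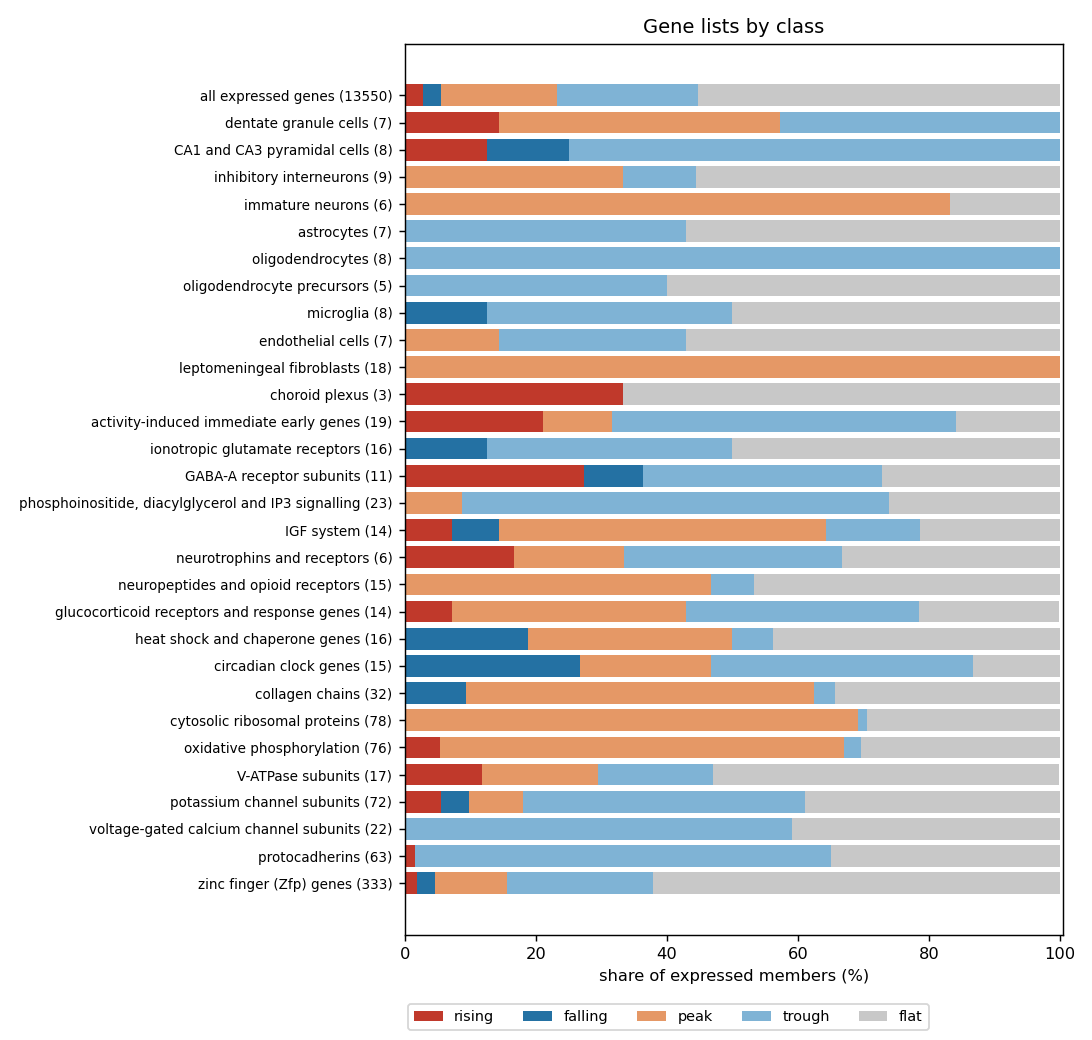
Share of the expressed members of each gene list in each class (%), with the number of expressed members in parentheses and all 13550 expressed genes in the top bar. By rule, all leptomeningeal markers are peak genes and all oligodendrocyte markers trough genes. Ribosomal and oxidative phosphorylation genes are mostly peak genes by rule, but only 11 of the 47 oxidative phosphorylation peak genes have both steps of at least 0.1. Rising genes take 3 of the 11 GABA-A receptor subunits (27.3%), 1 of them with both steps of at least 0.1.

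Of 78 cytosolic ribosomal protein genes, 54 were peak (69.2%, against 17.6% of all expressed genes), 1 trough and 23 flat, with a median first step of 0.15 and a median second step of -0.11. Rpl36 had 11.12 in LD, 11.46 in L-RUN, 11.23 in H-RUN, 11.32 in RUN and 11.30 in CE. Of 76 oxidative phosphorylation genes, 47 were peak by rule (61.8%), 4 rising, 2 trough and 23 flat. Of these 47, 11 had both steps of at least 0.1, against 41 of the 54 ribosomal peak genes. Cox7b had 12.25 in LD, 12.57 in L-RUN, 12.42 in H-RUN, 12.50 in RUN and 12.52 in CE. Unlike the ribosomal genes, the oxidative phosphorylation genes stayed higher than LD in H-RUN, with a median of 0.09. Their median second step was -0.04. Of 32 collagen chains 17 were peak genes (53.1%, 13 with both steps). They were led by Col1a2 (0.67 and -0.62), a fibroblast collagen that is also in the leptomeningeal list. Flat genes were 9 of 17 V-ATPase subunits (52.9%) and 207 of 333 zinc finger genes (62.2%), which is near the 55.2% of all expressed genes.

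Transcript length moved with the classes. The median length of the longest transcript was 2460 bases in peak and 5080 in trough genes, 2580 in rising, 4759 in falling and 3330 in flat genes. The genes were cut into 5 groups of equal size by length. In the group of the shortest (174 to 2097 bases), 36.2% were peak and 4.54% trough genes, and in that of the longest (5445 to 123179 bases) 6.54% were peak and 48.8% trough genes. The median first step went from 0.07 in the shortest to -0.10 in the longest group, and the median second step from -0.04 to 0.05. With the trend on length removed, the share of peak genes was 16.1% and that of trough genes 16.4%. Of the genes with both steps, 28 of 28 rising, 34 of 36 falling, 680 of 820 peak (82.9%) and 1064 of 1272 trough genes (83.6%) with a length kept their class. Of the whole classes, 58.3% of the rising, 55.3% of the falling, 66.3% of the peak and 64% of the trough genes with a length kept theirs. Peak genes were then 32 of 78 ribosomal and 23 of 75 oxidative phosphorylation genes, and trough genes 41 of 326 zinc finger genes and 0 of 5 oligodendrocyte precursor markers. The 18 leptomeningeal and 8 oligodendrocyte markers kept their class, and 25 of 32 collagen chains were peak genes. Trough genes were 12 of 23 phosphoinositide genes (52.2%) and 10 of 22 voltage-gated calcium channel subunits (45.5%). They were also 24 of 72 potassium channel subunits (33.3%) and 29 of 62 protocadherins with a length (46.8%). The source of the trend with length was not tested.

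**Figure D4:**
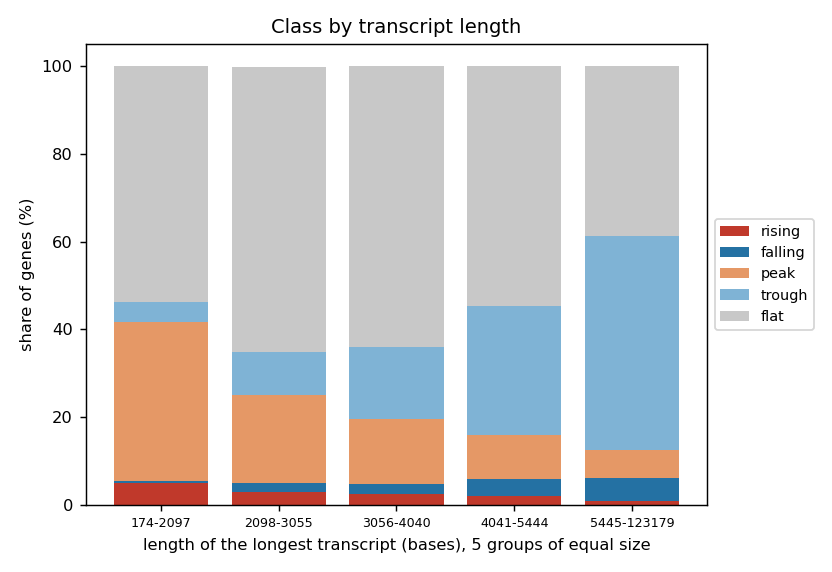
Share of genes in each class (%) in 5 groups of equal size by the length of the longest transcript in bases, for the 12765 expressed genes with a length. Peak genes go from 36.2% in the shortest to 6.54% in the longest group, and trough genes from 4.54% to 48.8%.

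The RUN library gives a second reading of the L-RUN pool that does not use the L-RUN library. The L-RUN value was rebuilt as the mixture partner that, with H-RUN, gives the RUN value, and the classes were formed again. Of the genes with both steps, 725 of 871 peak (83.2%), 1221 of 1337 trough (91.3%), 28 of 30 rising and 36 of 38 falling genes kept their class. Of the whole classes, 194 of 363 rising (53.4%), 221 of 386 falling (57.3%), 69.2% of the peak and 76.8% of the trough genes did. All 18 leptomeningeal and 8 oligodendrocyte markers kept their class. The first step of Ptgds was 2.04 in the rebuilt form and 1.97 in the library, that of Grin2a -0.93 and -0.88, and that of Sgk1 0.11 and 0.26. The first step of Cwc22 was smaller in the rebuilt form, at -0.87 against -1.15. Among the peak genes with both steps, 4933409K07Rik had a first step of 0.39 in the library and -0.19 rebuilt, and it was chosen after its values were seen. Both readings use the same 4 mice and the same H-RUN library, so that they say nothing of differences between mice. They share the LD library as well. Errors of RUN and H-RUN enter the rebuilt L-RUN value and can by themselves make a peak or a trough. With L-RUN rebuilt, 3047 genes were peak and 3463 trough genes, against 2391 and 2928 with the library.

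**Figure D5:**
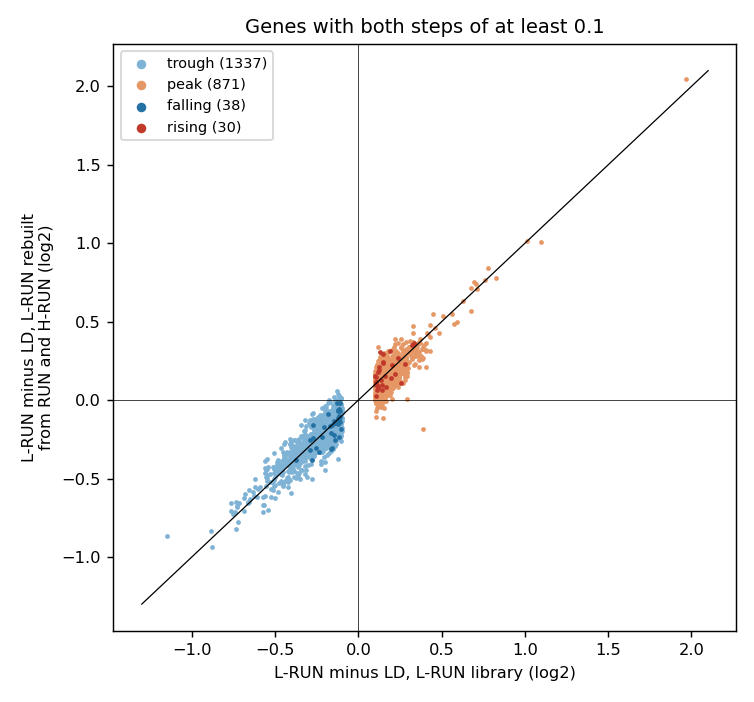
First step (L-RUN minus LD, log2) from the L-RUN library on the horizontal axis and from L-RUN rebuilt out of RUN and H-RUN on the vertical axis, for the genes with both steps of at least 0.1, with the line of equality. Most points lie near the line, with Ptgds at 1.97 and 2.04, and 4933409K07Rik lies on the other side of 0.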

How the data were processed

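RNA of the DG was extracted per mouse, combined in equal amounts into pools of 4 or 8 mice and sequenced after polyA selection, with 1 library per group. Per the methods and the submitters' processing notes, the authors processed the runs with CASAVA 1.8.2, removed adapters and aligned with TopHat2 2.0.10 against mm10. HTSeq gave counts per RefSeq gene, and the authors then normalized all 5 libraries at once with DESeq2 1.10.1. The deposited values are rlog values on the log2 scale. Counts and depth are unknown here, so no counting interval and no model of counts could be had.

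Steps were differences of rlog values, and genes with a mean of at least 5 were classed at a limit of 0.1. The technical SD came from the median absolute deviation of RUN against log2 of the linear mean of L-RUN and H-RUN, with the variance of a residual taken as 1.5 times and that of a difference as 2 times that of a library. Lengths (longest transcript, 12765 genes) and positions were matched by symbol to GENCODE for mm10, and the trend was removed by lowess (fraction 0.3). Promoters were matched by symbol to RefSeq for 10058 genes. Named were the 6 genes with the largest smaller step in each of 4 classes, the 3 with the largest step in each one-step pattern and up to 3 of the largest range in each of 29 lists. Other list members, and 4933409K07Rik, are given for illustration of the counts and were chosen after their values were seen. Results of some genes are not reported here. The classes and lists were chosen with earlier results of these data known. Alternatives were other limits and minimum means, median centring, quantile normalization, removal of the length trend, CE in place of LD, and L-RUN or H-RUN rebuilt from RUN. The class counts per list under removal of the length trend and under the rebuilt L-RUN, and the order of the pools over other sets of genes, were added after seeing the data. Scripts were tested on simulated data. Python 3.11.15, numpy 2.4.6, pandas 2.3.3, statsmodels 0.14.6 and matplotlib 3.10.9 were used.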

Additional observations from a re-analysis of the deposited data

Results flagged for a closer look

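In 4 of the 107 named genes, L-RUN and H-RUN lay on opposite sides of LD, each by about 0.1 or more. For Ptgds and Pou3f1 the H-RUN difference was close to that limit. Ptgds was 1.97 above LD in L-RUN and 0.10 below it in H-RUN (-0.10). Pou3f1, a transcription factor of CA1 cells, differed from LD by -0.42 in L-RUN and 0.10 in H-RUN. Wfs1, another CA1 marker, differed by -0.33 and 0.18, and Pcdhgc5, a clustered protocadherin, by -0.31 and 0.13. Among all expressed genes, 77 (0.568%) had this form, 44 with L-RUN above and 33 with L-RUN below LD. With 1 library per group, these differences were not tested.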

How the results depend on the processing

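The class counts were computed under 10 alternatives, and those not named here were within 1.5 times the values reported. A limit of 0.2 in place of 0.1 gave 47 rising, 58 falling, 501 peak, 960 trough and 11984 flat genes. Without a minimum mean there were 12719 flat genes. H-RUN rebuilt from RUN and L-RUN gave 740 rising and 672 falling genes. The cause of these changes was not tested, beyond a higher limit and a wider gene set by their own construction. Of the 179 steps of at least 0.1 in the 107 named genes, 0 changed sign under any of the 5 alternatives run on them. These genes were chosen for large steps or ranges in the same data. A change of sign was thus unlikely from the start, and the count is a description only. Values of named genes moved by more than the technical SD for 136 of their steps with L-RUN rebuilt (78 did not), 120 with the length trend removed (86 did not), 67 with H-RUN rebuilt (147 did not) and 56 with quantile normalization (158 did not). Of the genes with both steps of at least 0.1, CE in place of LD left 27 of 30 rising, 27 of 38 falling, 799 of 871 peak and 1275 of 1337 trough genes in their class, and of the whole classes 31.4%, 38.1%, 61.7% and 69% in the same order. No paired analysis was possible because each group is 1 library. No library could be left out, since each pool is 1 of the 3 points. The technical SD leaves out differences between mice, and depth could not be judged.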

Other observations

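Among expressed genes with an annotated biotype, 295 were long non-coding RNAs, of which 53 (18%) were peak, 34 (11.5%) trough, 7 (2.37%) rising and 4 (1.36%) falling genes. In the 12287 protein-coding genes, peak genes made up 17.5% and trough genes 22%. With the expressed genes in 5 groups of equal size by level, trough genes made up 10.3% of the lowest and 34.1% of the highest group, while peak genes made up 14.1% of each. Rising genes made up 1.44% of the lowest and 3.06% of the highest group.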
